A study of Mus musculus with 18 samples.

Results

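Enteroendocrine cells are the hormone-making cells of the gut epithelium, and 10 of their genes were followed through 18 mouse libraries. The genes were chosen by name from 54532 in the deposited tables, with earlier results of these data known. They comprise the progenitor factors Neurog3 and Neurod1, the secretory granule proteins Chga and Chgb, the peptide hormones Pyy, Gcg, Insl5, Cck and Sct, and Tph1, which makes serotonin. All 10 genes were counted in colitis tissue, and the progenitor factors were close to the limit of detection in tumours.

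New enteroendocrine cells arise from crypt stem cells through a short-lived progenitor that switches on Neurog3, a basic helix-loop-helix factor without which mice form no intestinal enteroendocrine cells. Neurog3 switches on Neurod1, which persists into maturing cells, while Neurog3 itself is soon shut off. Mature cells package their products in dense-core granules that contain chromogranins. In distal colon the main types are L cells, which release PYY, glucagon-like peptides and INSL5, and enterochromaffin cells, which release serotonin. Enteric neurons also contain granins and some of the same peptides, and rodent mast cells can make serotonin through Tph1.

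The libraries came from C57BL/6 mice of an Il1f5 line and an Il1f9 line. The product of Il1f5 is the antagonist of the IL-36 receptor, and that of Il1f9 is an agonist, IL-36 gamma. The colitis libraries were from pieces of distal colon, 0.5 cm long, of mice given 2.5% dextran sulfate sodium (DSS, a polymer that injures the colon epithelium) for 5 days and then water for 2 days. In colitis, Il1f5-/- mice (called KO) and Il1f5+/+ mice (wild type, WT) had n = 3 per group, and the Il1f9-/- and Il1f9+/+ groups had n = 2 per group. Colorectal tumours induced with azoxymethane (AOM, a carcinogen) and DSS were sampled from the same 4 genotypes with n = 2 each, and all mice of both tissues had thus received DSS. The labels give neither the age of the mice nor how the alleles were made, nor whether tumours were pooled, and no untreated colon was among the samples analysed. The submitters count mice in these same numbers per group but tie no library to a mouse, so p-values measure the spread between libraries.

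Library totals were 16621611 to 23776174 counts. Il1f9 had 1 and 9 counts in Il1f9 KO colitis against 90 and 232 in WT, and 0 and 2 counts in Il1f9 KO tumours against 752 and 1652 in WT. Il1f5 went against its labels. It had 36 to 45 counts in the colitis libraries and 102 and 211 in the tumour libraries labelled Il1f5 KO, against 0 in all WT libraries of the Il1f5 line and 0 in all KO and WT libraries of the Il1f9 line. Whether labels were exchanged or the KO allele itself gives reads was not tested. These groups are therefore called by their labels throughout, and each direction rests on the labels. Epithelial markers (10 genes such as Epcam) summed to 12379 to 22042 CPM (counts per 1000000 counts of the library total) in tumours and 11727 to 16274 CPM in colitis. Smooth muscle markers summed to 60.2 to 668 CPM in tumours and 1363 to 4797 CPM in colitis, so that the colon pieces held muscle wall and the tumours much less of it.

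Promoter windows of both progenitor factors and both granule proteins are shown because these 4 genes were lower in the colitis libraries labelled Il1f5 KO and in tumours. Each runs from 250 bases before to 50 bases after the RefSeq transcription start in GRCm38.p6, read 5′ to 3′ on the gene's strand. The windows are chr10:62132840-62133139 (plus strand) for Neurog3, chr2:79456587-79456886 (minus) for Neurod1, chr12:102554691-102554990 (plus) for Chga and chr2:132781392-132781691 (plus) for Chgb. Capitals mark CANNTG, the E-box core that basic helix-loop-helix factors bind, which reads the same on both strands.
Neurog3: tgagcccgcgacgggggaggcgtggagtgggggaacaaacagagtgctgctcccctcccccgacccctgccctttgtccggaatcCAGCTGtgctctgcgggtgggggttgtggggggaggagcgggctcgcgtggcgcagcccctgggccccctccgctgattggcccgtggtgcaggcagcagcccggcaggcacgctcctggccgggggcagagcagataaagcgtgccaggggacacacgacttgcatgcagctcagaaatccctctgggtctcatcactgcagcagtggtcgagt
Neurod1: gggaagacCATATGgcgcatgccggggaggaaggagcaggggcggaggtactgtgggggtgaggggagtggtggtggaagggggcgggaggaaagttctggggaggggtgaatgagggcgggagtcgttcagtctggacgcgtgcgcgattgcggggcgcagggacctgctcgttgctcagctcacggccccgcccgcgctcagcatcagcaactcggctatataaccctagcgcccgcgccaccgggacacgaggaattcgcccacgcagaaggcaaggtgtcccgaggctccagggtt
Chga: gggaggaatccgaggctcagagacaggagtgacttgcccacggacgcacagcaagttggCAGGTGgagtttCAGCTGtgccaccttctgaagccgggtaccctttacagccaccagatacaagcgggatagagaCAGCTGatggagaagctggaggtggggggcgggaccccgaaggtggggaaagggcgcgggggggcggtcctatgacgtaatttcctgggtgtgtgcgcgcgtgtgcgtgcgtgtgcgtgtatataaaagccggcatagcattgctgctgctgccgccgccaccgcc
Chgb: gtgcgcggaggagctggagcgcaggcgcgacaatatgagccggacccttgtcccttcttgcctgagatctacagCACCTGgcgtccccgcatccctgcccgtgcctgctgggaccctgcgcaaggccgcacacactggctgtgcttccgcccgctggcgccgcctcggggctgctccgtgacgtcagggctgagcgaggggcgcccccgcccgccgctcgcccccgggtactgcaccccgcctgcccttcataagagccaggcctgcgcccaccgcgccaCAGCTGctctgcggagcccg

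The Neurog3 window held 1 CANNTG, 165 bases before the start, and the Neurod1 window 1, 242 bases before it. Chga held 3 and Chgb held 2. All 10 genes had a RefSeq window, and each had at least 1 window with CANNTG, as did 72.3% of all 32851 windows of this length, so the match is common. The palindromic cAMP response element TGACGTCA, in lower case above, lay 72 bases before the Chgb start, apart from both CANNTG matches. It was in 1.79% of windows and in that of no other member. These matches describe letters only.

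Levels between genes are compared in the authors' FPKM, which divide by gene length. In Il1f5+/+ colitis, Pyy (ENSMUSG00000017311, chromosome 11, 102106676 to 102107832, minus strand) was the highest with 86.8 ± 2.52 FPKM (SD, n = 3). Chgb (ENSMUSG00000027350, chromosome 2, 132781278 to 132795079, plus strand) followed with 78.6 ± 5.95 FPKM, and Chga (ENSMUSG00000021194, chromosome 12, 102554969 to 102565028, plus strand) with 42.3 ± 3.41 FPKM. Gcg (ENSMUSG00000000394, chromosome 2, 62474530 to 62483650, minus strand) had 31.2 ± 5.29 FPKM. The SD intervals of Pyy and Chgb touched, while Chgb stood clear of Chga and Chga of Gcg.

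Below them lay Sct (ENSMUSG00000038580, chromosome 7, 141278330 to 141279133, minus strand) with 23.3 ± 4.95 FPKM and Insl5 (ENSMUSG00000066090, chromosome 4, 103017872 to 103026842, minus strand) with 21.7 ± 4.15 FPKM, which were not separable from each other, nor Sct from Gcg. Tph1 (ENSMUSG00000040046, chromosome 7, 46644641 to 46672537, minus strand) had 4.44 ± 0.197 FPKM and Cck (ENSMUSG00000032532, chromosome 9, 121489824 to 121495694, minus strand) 2.85 ± 0.478 FPKM. The progenitor factors were the lowest. Neurod1 (ENSMUSG00000034701, chromosome 2, 79452521 to 79456751, minus strand) had 1.28 ± 0.0463 FPKM and Neurog3 (ENSMUSG00000044312, chromosome 10, 62133090 to 62134763, plus strand) 0.822 ± 0.146 FPKM. Coordinates are those of the tables, in a build not given in the sources used here, and all 10 are the same in GENCODE M21. In Il1f5+/+ tumours Pyy was again the highest with 13.7 ± 1.04 FPKM (SD, n = 2), Insl5 had 6.35 ± 1.604 FPKM, and Neurog3 (0.0780 ± 0.0645 FPKM) and Neurod1 (0.0586 ± 0.0293 FPKM) were again the lowest. The library kit did not mark strand, and 273 of the 1674 exon bases of Neurog3 also belong to Fam241b on the other strand.

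**Figure D1:**
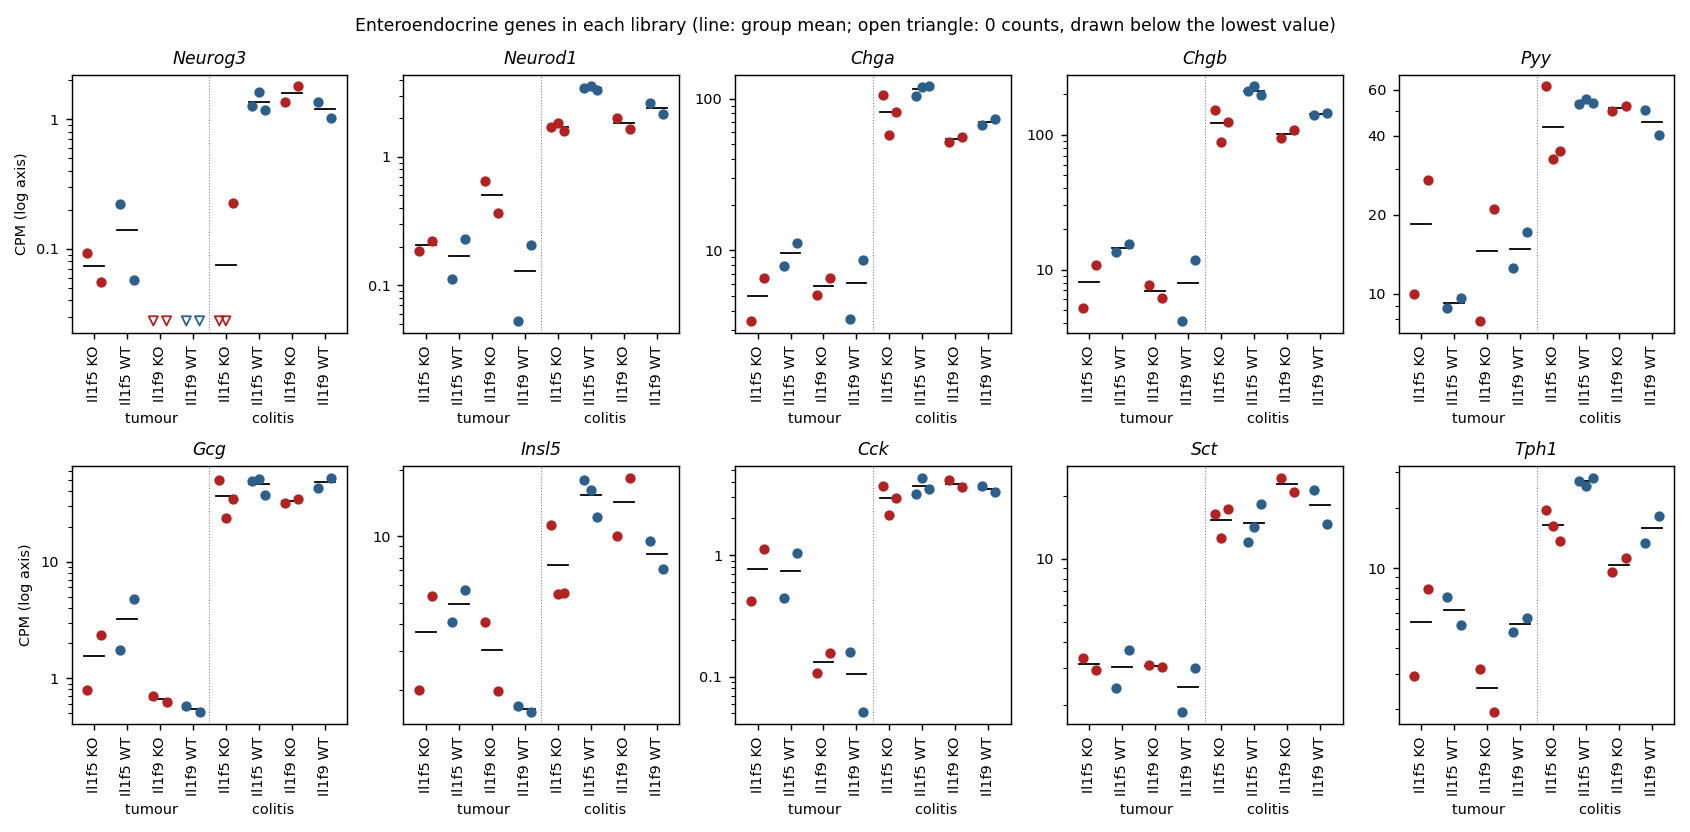
CPM of each enteroendocrine gene on a log axis by library, with KO-labelled libraries in red, WT in blue, tumours left of the dotted line and colitis right of it, black lines at the group means and open triangles for 0 counts. Every gene except Neurog3 and Insl5 was lower in all 8 tumours than in all 10 colitis libraries, and Neurog3 had 0, 0 and 4 counts in the 3 colitis libraries labelled Il1f5 KO.

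In colitis, the libraries labelled Il1f5 KO had lower levels of both progenitor factors, both granule proteins, Insl5 and Tph1 than WT. Of the 10 genes, 6 were lower and none was higher (edgeR quasi-likelihood test, Benjamini-Hochberg adjusted p under 0.05, called below), where 11% of all 18299 genes tested were called lower and 24.7% in either direction. DESeq2 also called 6 lower, and a fit of all 18 libraries called 3, without Chga (adjusted p = 0.17), Chgb (0.062) and Insl5 (0.0518). The median log2 fold change of the 10 was -0.67, against -0.01 over all genes. In bulk tissue, fewer cells of a type and less RNA per cell cannot be told apart.

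Neurog3, the factor that commits progenitors to the endocrine fate, had 0, 0 and 4 counts in the libraries labelled Il1f5 KO, against 24, 27 and 28 counts in WT. The groups did not overlap, and 2 of the 3 libraries labelled KO held no read of the gene. Summed over libraries and scaled to depth, the 4 reads against 79 were 18.23-fold lower, and the 95% interval from counting error ran from 6.845 to 68.54. The fitted log2 fold change was -4.14 ± 0.69 (SE, edgeR adjusted p = 0.00308) and the call held whichever library was left out. Fam241b, which shares exon bases with Neurog3, had 192 to 267 counts in the libraries labelled Il1f5 KO and 231 to 328 in WT.

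Neurod1, which acts downstream of Neurog3 and lasts longer, had 1.72, 1.84 and 1.58 CPM in the libraries labelled Il1f5 KO, against 3.44, 3.55 and 3.32 CPM in WT. All 3 lay below all WT libraries, with little spread in either group. The level was 2.09-fold lower (log2 fold change -1.06 ± 0.22, edgeR adjusted p = 0.00738). Of its 2729 exon bases, 201 belong also to Cerkl, which had 1 to 11 counts in the libraries labelled KO and 6 to 12 in WT.

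Among granule proteins, Chgb (chromogranin B) had 154, 88.6 and 124 CPM in the libraries labelled Il1f5 KO and 211, 229 and 198 CPM in WT, without overlap (log2 fold change -0.86 ± 0.16, edgeR adjusted p = 0.00499). Chga (chromogranin A), the usual marker of endocrine cells, had 106, 57.3 and 81.1 CPM in those labelled KO, against 105, 120 and 120 CPM in WT. Library 1 labelled KO reached the WT range and the other two lay below it. The fall of Chga was called (log2 fold change -0.56 ± 0.17, edgeR adjusted p = 0.0367), but not without WT 1, WT 2, WT 3, KO 2 or KO 3, where the adjusted p was 0.0518 to 0.107 and, without KO 2, the log2 fold change was -0.36.

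Tph1, the rate-limiting enzyme of serotonin synthesis in enterochromaffin cells, had 19.6, 16.2 and 13.7 CPM in the libraries labelled Il1f5 KO, against 27.2, 25.6 and 28.2 CPM in WT. The groups did not overlap, and the fall was called (log2 fold change -0.78 ± 0.14, edgeR adjusted p = 0.00396) and stayed so without any 1 library. Insl5, a hormone of colonic L cells, had 11.3, 5.47 and 5.54 CPM in those labelled KO, against 17.99, 16.2 and 12.2 CPM in WT. Library 1 labelled KO was again the highest of its group and lay just under the lowest WT library. Insl5 was called lower (log2 fold change -1.13 ± 0.32, edgeR adjusted p = 0.0315), but not without WT 1, WT 2, KO 2 or KO 3 (adjusted p = 0.0823 to 0.102).

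The other peptide hormones did not pass the test. Pyy, the satiety hormone of L cells, had 61.9, 32.6 and 35.1 CPM in the libraries labelled Il1f5 KO, against 53.1, 55.5 and 53.3 CPM in WT (log2 fold change -0.39 ± 0.21, edgeR adjusted p = 0.196). Gcg, which encodes proglucagon and so the glucagon-like peptides, had 50.5, 23.9 and 34.2 CPM in those labelled KO, against 49.3, 51.6 and 37.2 CPM in WT (log2 fold change -0.41 ± 0.23, edgeR adjusted p = 0.217). In both genes library 1 labelled KO lay within or above the WT range and the other 2 lay below it. Without that library both were called lower, Pyy at -0.71 (adjusted p = 0.0107) and Gcg at -0.70 (adjusted p = 0.0361).

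Cck, which encodes cholecystokinin, had 3.72, 2.15 and 2.94 CPM in the libraries labelled Il1f5 KO and 3.17, 4.33 and 3.49 CPM in WT (log2 fold change -0.39 ± 0.24, edgeR adjusted p = 0.255). Sct, which encodes secretin, had 16.4, 12.6 and 17.2 CPM in those labelled KO and 12.1, 14.1 and 18.3 CPM in WT, with a log2 fold change of -0.01 ± 0.21 (edgeR adjusted p = 0.977). The Cck and Sct groups overlapped, and the sign of Sct turned to 0.17 without WT 3 and 0.12 without KO 2.

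**Figure D2:**
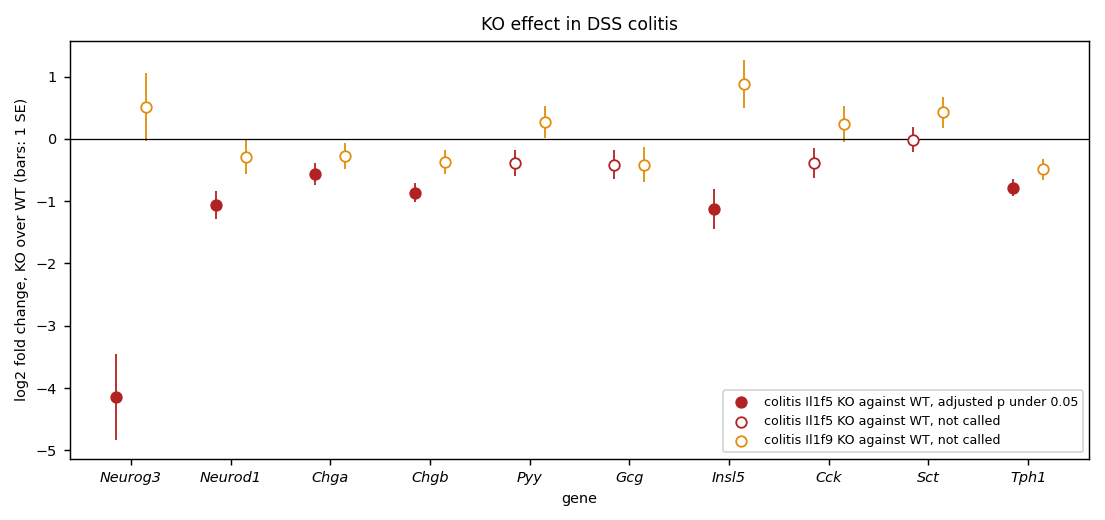
Log2 fold change of each gene, KO over WT as labelled, in DSS colitis with bars of 1 standard error, for the Il1f5 line in red and the Il1f9 line in orange. Filled points passed an adjusted p of 0.05, which 6 genes of the Il1f5 line did and none of the Il1f9 line, and Neurog3 in the Il1f5 line lies lowest at -4.14.

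In Il1f9 KO colitis none of the 10 genes was called by edgeR, although 19.6% of all genes were, 9.59% higher and 9.98% lower. DESeq2 called none either, and 2 had an unadjusted p under 0.05. Groups of 2 against 2 did not overlap in 7 of the 10. The share of all genes without overlap was not computed, so this count was not read further. Neurog3 is among the 7 although KO 1 and WT 1 were level at 1.37 CPM. Neurog3 had 24 and 37 counts in Il1f9 KO against 27 and 19 in WT, with 1.37 and 1.80 CPM in KO and 1.37 and 1.02 CPM in WT (log2 fold change 0.51 ± 0.55, edgeR adjusted p = 0.56). Neurod1 had 2.00 and 1.65 CPM in Il1f9 KO against 2.63 and 2.15 CPM in WT (log2 fold change -0.29 ± 0.27, adjusted p = 0.492). Both progenitor factors were thus detected in every library of the Il1f9 line in colitis.

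Chga had 51.5 and 56.1 CPM in Il1f9 KO colitis and 66.6 and 73.4 CPM in WT (log2 fold change -0.27 ± 0.21, edgeR adjusted p = 0.399). Chgb had 95.0 and 109 CPM in KO and 139 and 145 CPM in WT (-0.37 ± 0.19, adjusted p = 0.197). Tph1 had 9.54 and 11.2 CPM in KO and 13.3 and 18.2 CPM in WT, the smallest adjusted p of the 10 (-0.49 ± 0.17, adjusted p = 0.0693), and passed without WT 1 (adjusted p = 0.04). In these 3 genes both KO libraries lay below both WT libraries.

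Among L cell hormones, Insl5 had 10.1 and 18.5 CPM in Il1f9 KO colitis and 9.53 and 7.08 CPM in WT (log2 fold change 0.88 ± 0.39, edgeR adjusted p = 0.143). Gcg had 32.1 and 34.5 CPM in KO and 43.0 and 52.6 CPM in WT (-0.41 ± 0.28, adjusted p = 0.344), and Pyy 50.03 and 51.8 CPM in KO and 50.3 and 40.5 CPM in WT (0.26 ± 0.26, adjusted p = 0.514). These 3 hormones of the same cell type did not share a sign. Cck had 4.11 and 3.60 CPM in KO and 3.70 and 3.27 CPM in WT, and Sct 24.5 and 20.96 CPM in KO and 21.4 and 14.6 CPM in WT, with overlapping groups in both.

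The KO effects of the lines were compared directly. The difference between the effect in the libraries labelled Il1f5 KO and the Il1f9 KO effect was called for 2 of 10 genes, both lower, where 12% of all genes were called lower and 24.8% in either direction. For Neurog3 the difference was -4.65 ± 0.91 on the log2 scale (edgeR adjusted p = 0.00505), and for Insl5 it was -2.01 ± 0.51 (adjusted p = 0.0196). The Neurog3 difference was called whichever library was left out. That of Insl5 was not called without Il1f9 WT 2 (-1.74, adjusted p = 0.108) or Il1f9 KO 2 (-1.49, adjusted p = 0.0863), nor without a filter on low counts (adjusted p = 0.0643). Differences for the other 8 genes lay between -0.77 (Neurod1, ± 0.35, adjusted p = 0.125) and 0.00 (Gcg, ± 0.36, adjusted p = 0.999).

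Progenitor factors were set against hormones within each library by the ratio of summed FPKM, which no test was run on. Neurog3 and Neurod1 together had 0.357, 0.700 and 0.620 FPKM per 100 FPKM of the 5 peptide hormones in the colitis libraries labelled Il1f5 KO, against 1.24, 1.33 and 1.22 in WT. In Il1f9 KO colitis the ratio was 0.996 and 1.01, against 1.13 and 1.04 in WT. The libraries labelled Il1f5 KO were the lowest 3 of the 10 colitis libraries by this ratio. Chga and Chgb together had 53.7, 55.2 and 65.0 FPKM per 100 FPKM of peptide hormones in them, against 70.4, 74.5 and 73.8 in WT, and in Il1f9 KO 34.3 and 36.2, against 47.6 and 59.2 in WT. Tph1 had 7.53 to 12.6 FPKM per 100 FPKM of Chga in the libraries labelled Il1f5 KO and 9.56 to 11.6 in WT, so the groups overlapped in this ratio.

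Scaled to epithelial RNA, Neurog3 had 0, 0 and 0.0168 counts per 1000 epithelial marker counts in the libraries labelled Il1f5 KO, against 0.0829 to 0.109 in WT. All 10 genes together had 19.5 to 34.6 counts per 1000 epithelial marker counts in them, against 33.5 to 34.8 in WT. On this scale too the Neurog3 groups did not overlap, while the sums of the 10 overlapped through library 1 labelled KO.

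**Figure D3:**
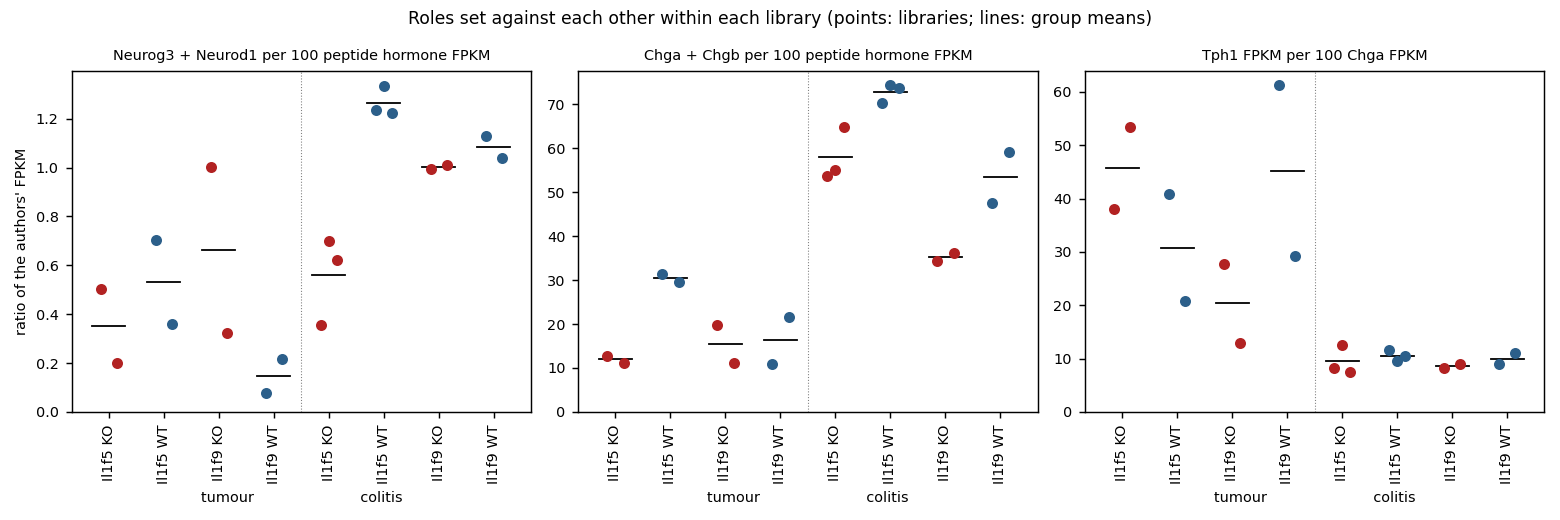
Ratios of the authors' FPKM within each library, with KO-labelled libraries in red, WT in blue, tumours left of the dotted line and colitis right of it, and lines at the group means. The progenitor ratio was 0.357 to 0.700 in the colitis libraries labelled Il1f5 KO and 1.22 to 1.33 in their WT, and Tph1 per 100 Chga was 13.01 to 61.3 in tumours and 7.53 to 12.6 in colitis.

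Other genes of the enteroendocrine programme were described from lists beside these 10. Of 16 further enteroendocrine transcription factors, 15 were tested, and 5 were lower and 1 higher in the colitis libraries labelled Il1f5 KO (median log2 fold change -0.50). Of all genes 11% were called lower and 13.7% higher there. Insm1, a zinc-finger factor needed for endocrine differentiation, fell by 1.27 on the log2 scale (SE 0.23, edgeR adjusted p = 0.00404), with Foxa1 at -0.50 ± 0.09 and Foxa2 at -0.71 ± 0.16, forkhead factors of gut epithelium. These 3 were called whichever library was left out. Nkx2-2 (-1.36 ± 0.32) and Lmx1a (-0.94 ± 0.31), homeobox factors of enterochromaffin cells, were lower too, but Nkx2-2 lost its call without 1 of the 6 libraries and Lmx1a whichever of the 6 was left out. Runx1t1, a corepressor, was higher (1.18 ± 0.27). In Il1f9 KO colitis 0 of the 15 factors were called, with Fev (-0.97 ± 0.38, adjusted p = 0.0949), a factor of serotonin cells, and Sox4 (-0.63 ± 0.25, adjusted p = 0.0962) nearest. For the difference between the lines, 2 of the factors were called lower and 1 higher, where 24.8% of all genes were called in either direction.

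The genes that act before Neurog3 in choosing the secretory fate were largely not called in the libraries labelled Il1f5 KO. Of all genes 24.7% were called there. Of 12 Notch and secretory fate genes, 11 were tested and 1 was called, Rbpj, the DNA-binding partner of Notch (log2 fold change 0.32 ± 0.09, edgeR adjusted p = 0.029, lost when any of 4 of the 6 libraries was left out), followed by Notch2 (0.44 ± 0.16, adjusted p = 0.0605). In Il1f9 KO colitis, Notch1 (-0.95 ± 0.14) and Notch2 (-0.92 ± 0.20) were lower and Hes1, a Notch target that represses endocrine fate, was higher (0.64 ± 0.15, adjusted p = 0.0136).

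Granule and prohormone processing genes went the other way from Chga and Chgb in the libraries labelled Il1f5 KO. Of 12 genes, 8 were called higher and none lower, with a median log2 fold change of 1.06, where 13.7% of all genes were called higher. Cpe (1.13 ± 0.11), a carboxypeptidase that trims prohormones, Pcsk2 (1.68 ± 0.29), a convertase that cuts them, and Scg2 (1.46 ± 0.30), a secretogranin, were among them, with Pcsk1n, Vgf, Ptprn, Scg5 and Pam. Other gut hormones comprised 12 genes, of which 8 were tested, with 4 higher and 1 lower. Sst, made by D cells and by enteric neurons, was higher (2.09 ± 0.36), as were the neuropeptide genes Nmu (2.19 ± 0.52), Gal and Penk, while Tac1, the substance P gene, fell by 1.01 ± 0.31. Of these calls, 4 of 8 for the granule genes and 1 of 5 for the other hormones (Sst) held whichever library was left out.

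Enteric neuron markers moved with these granule genes, in a comparison that called 13.7% of all genes higher and 11% lower. All 12 neuron markers were higher in the libraries labelled Il1f5 KO (median log2 fold change 1.56), among them Uchl1 (1.75 ± 0.25) and Elavl3 (2.01 ± 0.31), and 7 of the 12 calls held whichever library was left out. Their sum was 198 to 317 CPM in those libraries and 87.4 to 125 CPM in WT, with no marker at 0. Of 6 glia markers 3 were higher, such as Gfap (1.40 ± 0.32), with sums of 32.7 to 56.2 CPM in those libraries and 17.2 to 24.2 CPM in WT. Of 6 smooth muscle markers 4 were higher, such as Acta2 (0.87 ± 0.16) and Myh11 (1.12 ± 0.23), with sums of 3114 to 4797 CPM in those libraries and 1881 to 2105 CPM in WT. Of 10 epithelial markers 2 were lower, Cdh1 (-0.37 ± 0.10) and Krt18 (-0.27 ± 0.08), with sums of 12269 to 13459 CPM in those libraries and 14164 to 14955 CPM in WT. Where goblet and tuft cell markers were called, most were higher. Of 8 goblet markers 4 were higher and 1 lower, with Clca1 at 1.67 ± 0.27 and Tff3 at 0.62 ± 0.12, and of 7 tuft cell markers tested 5 were higher and none lower, with Alox5 at 1.39 ± 0.18 and Dclk1 at 1.05 ± 0.19. Chat, called higher, is counted in both the tuft cell and the neuron list. Of 8 proliferation genes 3 were lower, among them Plk1 (-0.74 ± 0.15) and Mki67 (-0.97 ± 0.26), and 0 of 7 immune markers were called by edgeR, with S100a8 (1.93 ± 0.65, adjusted p = 0.0747) and S100a9 (1.90 ± 0.72, adjusted p = 0.101) nearest. Calls that held whichever library was left out were 0 of 3 for glia, 2 of 4 for smooth muscle, 0 of 2 for epithelial, 2 of 5 for goblet, 4 of 5 for tuft cell and 1 of 3 for proliferation genes. The part of these cell types in the enteroendocrine results was not tested.

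**Figure D4:**
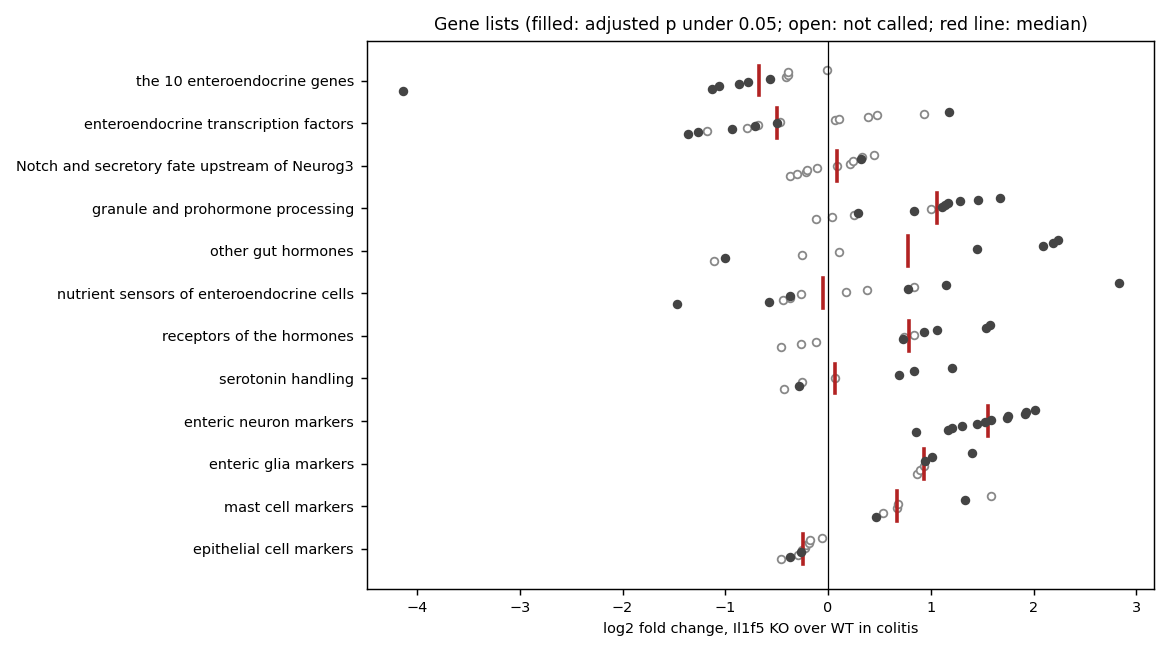
Log2 fold changes of each gene of 12 gene groups in colitis, libraries labelled Il1f5 KO over WT, with filled points for an adjusted p under 0.05, open points for genes not called and red lines at the medians. The 10 enteroendocrine genes lie at or left of 0 with a median of -0.67, and the granule processing genes and all 12 neuron markers lie mostly to the right, with medians of 1.06 and 1.56.

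Sensors by which endocrine cells read the gut lumen were mixed in the libraries labelled Il1f5 KO, with 3 of 12 higher and 3 lower. Of all genes 13.7% were called higher and 11% lower. Gpr119, a lipid receptor of L cells, was lower (log2 fold change -1.47 ± 0.49, edgeR adjusted p = 0.0491), as were Ffar4, a receptor for long-chain fatty acids (-0.57 ± 0.17), and Slc5a1, the sodium-glucose transporter (-0.37 ± 0.12). The channel Trpc4 (2.83 ± 0.46), the short-chain fatty acid receptor Ffar3 (1.14 ± 0.35) and the irritant sensor Trpa1 (0.78 ± 0.26) were higher. Of these 6 calls, Trpc4 alone held whichever library was left out. Among 10 tested receptors for the hormones, 5 were higher and none lower, including the serotonin receptors Htr3a (1.54 ± 0.25) and Htr2b (1.57 ± 0.34) and the pancreatic polypeptide receptor Npy4r (1.06 ± 0.19).

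Beside Tph1, 7 genes that handle serotonin were tested. In the libraries labelled Il1f5 KO, Slc6a4, the serotonin reuptake transporter, was higher (log2 fold change 1.20 ± 0.23, edgeR adjusted p = 0.00534), with Slc18a2 (0.84 ± 0.24) and Maob (0.69 ± 0.16), and Gch1, which makes the Tph1 cofactor, was lower (-0.28 ± 0.08). Of these 4 calls, that of Slc6a4 alone held whichever library was left out. In Il1f9 KO colitis Slc6a4 was higher as well (1.19 ± 0.29, adjusted p = 0.0165), with Maoa, which breaks serotonin down (1.33 ± 0.22), and Ddc, the enzyme after Tph1 (0.95 ± 0.17). Mast cell markers, which can accompany Tph1, had 2 of 6 tested higher in the libraries labelled Il1f5 KO, Kit (0.46 ± 0.12) and Tpsb2 (1.33 ± 0.40), with sums of 102 to 107 CPM in those libraries and 66.3 to 78.1 CPM in WT. Both mast cell calls were lost when some libraries were left out, and 13.7% of all genes were called higher in these libraries. Tph1 was lower there.

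In Il1f9 KO colitis, where 19.6% of all genes were called, the enteroendocrine lists were mixed, with 0 of 15 transcription factors, 2 of 12 granule processing genes, 3 of 11 Notch and secretory fate genes and 3 of 7 serotonin genes called. Of the 12 granule processing genes, Cpe was higher (log2 fold change 0.56 ± 0.14) and Ptprn2 lower (-0.58 ± 0.18, edgeR adjusted p = 0.0445), and of the 12 sensors Ffar2 alone was called, higher (0.67 ± 0.18), with Olfr558 at -0.79 ± 0.35 (adjusted p = 0.138). Nmu (2.82 ± 0.67) was the 1 other gut hormone called, and Iapp was at -2.07 ± 0.75 (adjusted p = 0.0723). Among hormone receptors and their peptidases, the incretin-degrading protease Dpp4 was lower (-0.57 ± 0.17) and Npy4r was at 0.64 ± 0.22 (adjusted p = 0.0647).

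Markers of other cells differed more widely in Il1f9 KO colitis, where 9.59% of all genes were called higher and 9.98% lower. All 6 smooth muscle markers were higher, such as Des (1.39 ± 0.26) and Cnn1 (1.23 ± 0.24), with sums of 3865 and 4245 CPM in Il1f9 KO and 1363 and 2670 CPM in WT. Of 10 epithelial markers 4 were higher, such as Krt18 (0.82 ± 0.10) and Krt19 (0.54 ± 0.13), as were 3 of 8 goblet markers, such as Spink4 (1.21 ± 0.14) and Zg16 (1.05 ± 0.17), and 2 of 8 proliferation genes, Pcna (0.84 ± 0.23) and Birc5 (1.14 ± 0.33). Of 7 immune markers 5 were lower, such as Lyz2 (-2.29 ± 0.19) and Ptprc (-1.32 ± 0.18). Immune markers summed to 174 and 237 CPM in Il1f9 KO and 1343 and 1485 CPM in WT. In colitis of the Il1f5 line they summed to 303 to 428 CPM in WT and 351 to 741 CPM in the libraries labelled KO. WT of the Il1f9 line was thus the highest colitis group. The part of immune cells in the values of the 10 genes was not tested. Of 12 neuron markers 1 was lower, Ret (-1.19 ± 0.19), with Chat at 0.79 ± 0.40 (adjusted p = 0.193). Of 6 mast cell markers tested Hdc was lower (-2.64 ± 0.72) and Mcpt1 was at 1.61 ± 0.56 (adjusted p = 0.0703). No tuft cell marker of 7 was called by edgeR, with Alox5 (-0.54 ± 0.22, adjusted p = 0.103) and Pou2f3 (1.47 ± 0.62, adjusted p = 0.119) nearest.

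Against colitis tissue, tumours had lower levels of all 10 genes. Each was called lower by edgeR in a fit of the 18 libraries that weighted the 4 genotypes equally, where 36.1% of all 19514 genes were called lower, 36.5% higher and 72.6% in either direction. Neurog3 and Neurod1 did not pass the filter on low counts among tumours alone and entered this fit through colitis libraries. The filter thus favoured a lower call for these genes. The median log2 fold change of the 10 was -3.36, against -0.01 over all genes. In 8 of the 10 the 8 tumours and the 10 colitis libraries did not overlap. The share over all genes was not computed, so this count was not read further. Tumour and colitis libraries stand in different deposited tables, and tissue and table cannot be told apart.

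Neurog3 had a lowest count of 0, a median of 0.0278 CPM and a highest count of 4 in tumours, against 0 to 37 counts and a median of 1.22 CPM in colitis. All 4 tumours of the Il1f9 line had 0 counts of Neurog3, which at a limit of 3 counts over them is at least 35.62-fold lower than in colitis of that line. In the Il1f5 line the tumours labelled KO had 2 and 1 counts and WT tumours had 4 and 1. Over all libraries, 8 reads in tumours and 190 in colitis made it 18.85-fold lower, with 95% limits from counting error of 9.372 and 44.31. The fitted difference of -4.68 ± 0.71 (edgeR adjusted p = 3.54e-05) depends on groups at 0 and is no bound. It was not called without colitis library 3 labelled Il1f5 KO (-3.79, adjusted p = 1), where that group too was at 0.

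Neurod1 had 0.0527 to 0.643 CPM, median 0.214, in tumours and 1.58 to 3.55 CPM, median 2.07, in colitis (log2 fold change -3.27 ± 0.22, edgeR adjusted p = 2.21e-09). Tumour counts of Neurod1 were 1 to 12, so single reads weigh on its level. Chga had 3.44 to 11.2 CPM, median 6.60, in tumours and 51.5 to 120 CPM, median 77.2, in colitis (-3.52 ± 0.19, adjusted p = 1.23e-09). Chgb had 4.17 to 15.5 CPM, median 9.26, in tumours and 88.6 to 229 CPM, median 142, in colitis (-3.90 ± 0.20, adjusted p = 1.68e-09). For these 3 genes the highest tumour lay well under the lowest colitis library.

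Gcg showed the largest fitted difference of the peptide hormones, with 0.511 to 4.75 CPM, median 0.743, in tumours and 23.9 to 52.6 CPM, median 40.1, in colitis (log2 fold change -5.06 ± 0.25, edgeR adjusted p = 5.08e-10). Pyy, made by the same L cells, had 7.88 to 27.1 CPM, median 11.2, in tumours and 32.6 to 61.9 CPM, median 51.05, in colitis (-1.74 ± 0.23, adjusted p = 1.86e-05). Insl5 had 1.58 to 5.72 CPM, median 3.04, in tumours and 5.47 to 18.5 CPM, median 10.7, in colitis, overlapping slightly (-1.76 ± 0.23, adjusted p = 5.58e-06). Pyy FPKM per 100 Gcg FPKM were 479 to 7991 in tumours and 182 to 369 in colitis, without overlap.

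Cck had 0.0511 to 1.11 CPM, median 0.288, in tumours and 2.15 to 4.33 CPM, median 3.54, in colitis (log2 fold change -3.45 ± 0.26, edgeR adjusted p = 6.49e-09). Sct had 1.85 to 3.66 CPM, median 3.02, in tumours and 12.1 to 24.5 CPM, median 16.8, in colitis (-2.53 ± 0.15, adjusted p = 3.83e-10). Tph1 had 1.93 to 7.85 CPM, median 5.03, in tumours and 9.54 to 28.2 CPM, median 17.2, in colitis (-1.78 ± 0.16, adjusted p = 4.42e-08). Tph1, Pyy and Insl5 thus had the smallest differences, and Tph1 per 100 Chga in FPKM was 13.01 to 61.3 in tumours and 7.53 to 12.6 in colitis. Mast cell markers summed to 168 to 683 CPM in tumours and 63.1 to 112 CPM in colitis, and their part in the Tph1 level was not tested.

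Within each genotype the same comparison called 8 of 10 genes lower in the libraries labelled Il1f5 KO, where 27.3% of genes were, and 10 of 10 in Il1f5 WT (21.7%), Il1f9 KO (25.3%) and Il1f9 WT (29.6%). The 10 include Neurog3 and Neurod1, which passed the filter on low counts through colitis libraries only. In the libraries labelled Il1f5 KO the exceptions were Insl5 (log2 fold change -0.997 ± 0.435, edgeR adjusted p = 0.063) and Neurog3 (0.08 ± 1.17, adjusted p = 0.959). Gcg differed by -4.52 ± 0.47 and -4.02 ± 0.44 in the Il1f5 line and by -5.50 ± 0.53 and -6.18 ± 0.55 in the Il1f9 line, labelled KO and WT in each. Cck differed by -1.92 ± 0.43 and -2.50 ± 0.44 in the Il1f5 line and by -4.66 ± 0.58 and -4.74 ± 0.60 in the Il1f9 line. Chgb varied least of the 10 between genotypes, from -4.07 ± 0.39 in Il1f5 WT to -3.74 ± 0.41 in Il1f9 KO. Differences between the lines in these tissue contrasts were not tested. Tumours of each line stand in a deposited table of their own, so line and table cannot be told apart among tumours.

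**Figure D5:**
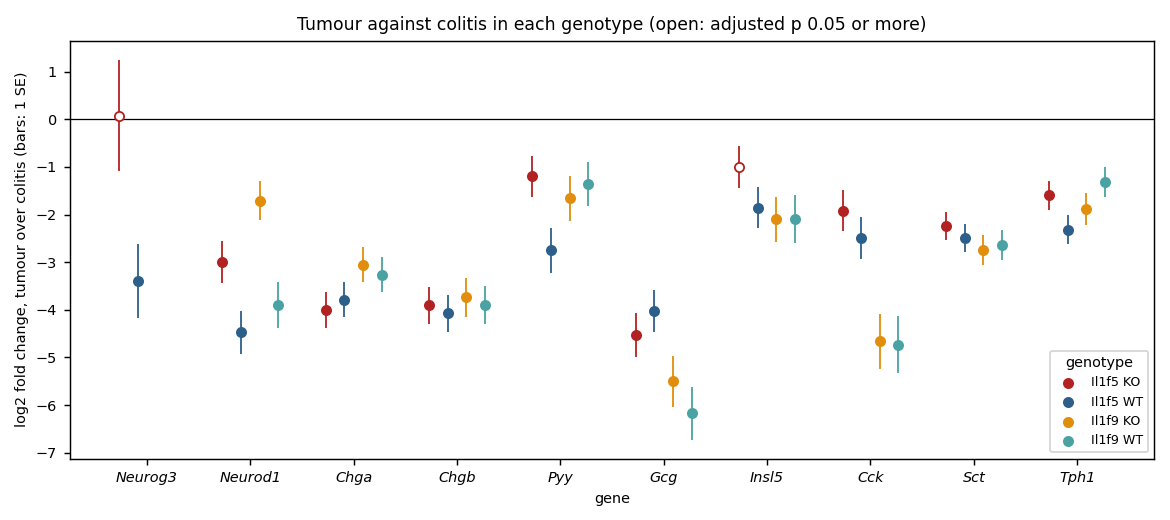
Log2 fold change, tumour over colitis, of each gene in each genotype as labelled, with bars of 1 standard error, filled where the adjusted p was under 0.05 and open elsewhere, with Neurog3 in the Il1f9 line not drawn because its tumours had 0 counts. All values lie below 0 except Neurog3 in the libraries labelled Il1f5 KO (0.08), and Gcg and Cck lie lower in the Il1f9 line than in the Il1f5 line. Among tumours, line and deposited table cannot be told apart.

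The further enteroendocrine lists differed in direction between tumours and colitis, where 72.6% of all genes were called, 36.5% higher and 36.1% lower. Of 15 tested transcription factors 10 were lower and 4 higher, with Runx1t1 at -3.71 ± 0.21, Insm1 at -2.98 ± 0.24, Fev at -3.26 ± 0.32, Pax6 at -2.40 ± 0.39 and Rfx6 at -2.17 ± 0.37 on the log2 scale. Sox4 (2.83 ± 0.14), Isl1 (3.29 ± 0.29), Foxa1 (0.80 ± 0.06) and Foxa2 (0.65 ± 0.13), which other cells also make, were higher, and the factors of this list summed to 269 to 426 CPM in tumours and 121 to 177 CPM in colitis. Of 12 granule processing genes 11 were lower, for example Pcsk1n (-4.20 ± 0.15) and Scg2 (-5.17 ± 0.23), and all 12 sensors were lower, for example Ffar2 (-2.90 ± 0.17) and Ffar1, which some tumour groups held at 0 counts. Of 9 other gut hormones tested 7 were lower and 1 higher, with Sst at -6.50 ± 0.27 (edgeR adjusted p = 1.01e-11) and Gal at -4.23 ± 0.47. Of 10 hormone receptors and peptidases 7 were lower and 2 higher, with Dpp4 at -1.96 ± 0.10 and Htr3a at 0 counts in some tumour groups. The serotonin genes split, with 3 of 7 higher, such as the vesicular transporter Slc18a1 (3.07 ± 0.14), and 3 lower, such as Maob (-3.32 ± 0.16). Of 11 Notch and secretory fate genes tested 5 were higher and 4 lower, with a median of 0.04. Atoh1, which opens the secretory lineage before Neurog3, was lower (-2.36 ± 0.09), as was the Notch ligand Dll1 (-2.29 ± 0.19), while Notch1 (0.95 ± 0.08) and Hes6 (2.32 ± 0.09) were higher.

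Markers of the other cell types were also compared between the tissues, where 72.6% of all genes were called, 36.5% higher and 36.1% lower. In the epithelial, tuft cell, immune and proliferation lists the part called was near or below that share. Of 8 goblet markers 7 were lower in tumours, such as Muc2 (-3.89 ± 0.13) and Zg16 (-2.97 ± 0.11), and of 12 neuron markers 11 were lower, such as Snap25 (-3.52 ± 0.21). Neuron markers summed to 40.6 to 98.1 CPM in tumours and 87.4 to 317 CPM in colitis. Of 6 glia markers 5 were lower, such as Gfap (-6.84 ± 0.35), and all 6 smooth muscle markers were lower, such as Tagln (-2.40 ± 0.18) and Myh11 (-5.13 ± 0.47). Of 9 mast cell markers 8 were higher, such as Cpa3 (5.09 ± 0.23), and Kit was lower (-2.32 ± 0.11). Of 7 tuft cell markers 4 were lower and 1 higher, with Dclk1 at -2.69 ± 0.17 and Avil at 4.20 ± 0.12. Of 7 immune markers 3 were higher and 1 lower, with Lyz2 at 1.75 ± 0.12 and Cd79a at -2.47 ± 0.26, and of 8 proliferation genes 5 were higher and 1 lower, with Pcna at 1.02 ± 0.10 and Mcm2 at 0.79 ± 0.11. Of 10 epithelial markers 5 were higher and 2 lower, with Krt18 at 1.82 ± 0.08 and Krt20 at -1.12 ± 0.11. Per 1000 epithelial marker counts, the 10 enteroendocrine genes together had 1.47 to 4.70 counts in tumours and 17.5 to 34.8 in colitis. The part of these cell types in the levels of the 10 genes was not tested.

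Within tumours, no KO effect on these genes was called by edgeR with a filter on low counts. Neurog3 and Neurod1 did not pass the filter on low counts, so that 8 genes were tested. In tumours labelled Il1f5 KO 0 of 8 were called by edgeR, with 0.028% of all genes called, 0 members at an unadjusted p under 0.05 and 0 called by DESeq2. Pyy had 9.94 and 27.1 CPM in tumours labelled Il1f5 KO and 8.83 and 9.62 CPM in WT (log2 fold change 1.15 ± 0.56, edgeR adjusted p = 0.266), with the difference resting mostly on library 2. Without the filter Pyy was called (1.18, adjusted p = 0.00124). Chga had 3.44 and 6.57 CPM in the tumours labelled KO and 7.88 and 11.2 CPM in WT (-0.78 ± 0.45, adjusted p = 0.328), and Chgb 5.20 and 10.9 CPM in the tumours labelled KO and 13.5 and 15.5 CPM in WT (-0.70 ± 0.47, adjusted p = 0.403). The groups did not overlap in Chga, Chgb or Pyy, 3 of the 8 genes. The share over all genes was not computed, so this count was not read further.

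In Il1f9 KO tumours 0 of 8 genes were called by edgeR, where 0.0168% of all genes were, with 1 member at an unadjusted p under 0.05 and 0 called by DESeq2. That member was Tph1, with 3.16 and 1.93 CPM in Il1f9 KO and 4.85 and 5.67 CPM in WT (log2 fold change -1.07 ± 0.47, edgeR adjusted p = 0.569). Insl5 had 4.07 and 1.98 CPM in KO and 1.69 and 1.58 CPM in WT (0.86 ± 0.53, adjusted p = 0.679), and Neurod1, not tested there, had 12 and 7 counts in KO and 1 and 4 in WT. The difference between the KO effects of the lines in tumours was called for 0 of 8 genes by edgeR and by DESeq2, with 0 at an unadjusted p under 0.05 and 0.0784% of all genes called.

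Whether a KO effect differed between tumour and colitis was tested on all 18 libraries. For the Il1f5 line 0 of 10 genes were called by edgeR, where 18.1% of all genes were, with 2 at an unadjusted p under 0.05 and 1 called by DESeq2. That gene was Pyy, whose effect in the libraries labelled Il1f5 KO was higher in tumours by 1.55 ± 0.60 on the log2 scale (edgeR adjusted p = 0.0959, DESeq2 adjusted p = 0.0292). For the Il1f9 line 0 of 10 were called by edgeR, where 2.47% of all genes were, with 1 at an unadjusted p under 0.05 and 0 called by DESeq2. That gene was Neurod1 (2.19 ± 0.66, edgeR adjusted p = 0.0862), which passed without tumour Il1f9 KO 2 (adjusted p = 0.0446).

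The WT mice of the lines differed too, and each KO comparison, made within its line, shares its WT libraries with the contrasts below. In colitis, WT of the Il1f9 line had lower Chga than WT of the Il1f5 line, with 66.6 and 73.4 CPM against 105, 120 and 120 CPM (log2 fold change -0.78 ± 0.19, edgeR adjusted p = 0.0495). Tph1 had 13.3 and 18.2 CPM in the Il1f9 line and 27.2, 25.6 and 28.2 CPM in the Il1f5 line (-0.85 ± 0.16, adjusted p = 0.0151). These were 2 of 10 genes, both lower, with 1.68% of all genes called lower and 4.93% in either direction. Chga was not called without any of the 5 libraries in turn (adjusted p = 0.0885 to 0.278), and neither was Tph1 without Il1f5 WT 1, Il1f5 WT 2 or Il1f9 WT 1 (adjusted p = 0.0559 to 0.0706). A fit of all 18 libraries called 0 of the 10 (Chga 0.194, Tph1 0.126), and DESeq2, like a fit of only these groups, called 4. Neurog3 had 27 and 19 counts in WT of the Il1f9 line and 24, 27 and 28 in WT of the Il1f5 line (-0.23 ± 0.51, adjusted p = 0.817). Mean CPM in colitis libraries labelled Il1f5 KO were also set against those in WT of the Il1f9 line, without a test. They were 81.4 against 70.0 for Chga, 16.5 against 15.8 for Tph1 and 122 against 142 for Chgb. For Insl5 they were 7.44 against 8.30, for Neurod1 1.71 against 2.39 and for Neurog3 0.0753 against 1.19.

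In WT tumours 1 of 8 genes was called, Gcg, where 11.7% of all genes were called lower and 28.5% in either direction. Tumours of the Il1f5 and Il1f9 lines stand in different deposited tables, and line and table cannot be told apart there. Gcg had 0.580 and 0.511 CPM in the Il1f9 line and 1.73 and 4.75 CPM in the Il1f5 line (log2 fold change -2.15 ± 0.66, edgeR adjusted p = 0.039). The call was lost without Il1f5 WT 2 (-1.22, adjusted p = 0.293), Il1f9 WT 1 (adjusted p = 0.151) or Il1f9 WT 2 (adjusted p = 0.165). Cck had 0.158 and 0.0511 CPM in the Il1f9 line, which are 3 reads and 1, and 0.447 and 1.03 CPM in the Il1f5 line (-2.35 ± 0.89, adjusted p = 0.0763).

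Genes whose pattern over the 18 libraries was nearest to Neurog3 were found among 16013 others by the root mean square difference of log2 CPM, each gene centred on its mean. They were Cyp3a25 (1.11), Aqp4 (1.15), Gstm3 (1.20), C2cd4a (1.22) and Insm1 (1.23), of which Insm1 is the enteroendocrine factor described above. Aqp4, a water channel, averaged 52.1 CPM in tumours, 111 CPM in the colitis libraries labelled Il1f5 KO and 392 CPM in their WT. Insm1 averaged 0.430, 1.73 and 3.98 CPM in the same groups. Nearest to Chga were Slc51b (0.476), a bile acid transporter subunit, Resp18 (0.505), a neuroendocrine granule protein, Hoxb4 (0.521), Ugt8a (0.529) and the Mir10a gene entry (0.530). The distances to Chga were smaller than those to Neurog3. All genes share these libraries and their depth.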

How the data were processed

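Poly(A) RNA of 18 libraries was sequenced as read pairs after a non-directional second-strand step, per the labels' protocols. Trim Galore 0.6.4, HISAT2 2.0.5 and featureCounts 2.0.0 are named in the submitters' processing notes, and the genome build was not given in the sources used here. Deposited by the authors were counts per gene as whole numbers, and FPKM (counts scaled by depth and gene length), in 3 tables joined here by gene identifier. The log2 fold changes and adjusted p-values of their own comparisons, also deposited by the authors, were not used for any result. In them Insl5 in Il1f9 KO colitis (log2 fold change 0.831) and Pyy in tumours labelled Il1f5 KO (1.155) had an adjusted p under 0.05. Neither was called here by edgeR with its filter or by DESeq2. Unstranded counts mix overlapping genes, and library totals of 16621611 to 23776174 limit the precision of genes with few reads.

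Tests used edgeR 4.0.16 in R 4.3.3 on the counts, with TMM factors of 0.8598 to 1.1632, filterByExpr, a group-means model and the robust quasi-likelihood F test. KO effects and WT lines were fitted within a tissue, and comparisons of tissues on all 18 libraries. Genes were called at a p under 0.05 after Benjamini-Hochberg adjustment over all genes tested. FPKM served only for levels between genes and ratios. Counting intervals are exact at 95%, the limit behind a count of 0 is 3 counts, and both cover counting error only.

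Alternatives were DESeq2 1.42.0 size factors and its Wald test, no filter, the replicate number as a block, all 18 libraries in 1 fit, only the groups compared, and each library left out. Where that left 1 library in a group, it was assumed to vary like the others. Groups came from the labels, which name no batch.

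Named were all 10 genes, called genes of 16 further lists with 158 genes, at least the 2 of smallest p in each list (some marker genes are not reported here), and the 5 nearest patterns to Neurog3 and Chga. List genes were named for the KO effects in colitis and for tumour against colitis, and other comparisons have counts alone. Members and lists were chosen with earlier results of these data known. Gast, the gastrin gene, had 0 counts in every library. Promoter windows are RefSeq's. The tests were checked on simulated data. Tables were handled with Python 3.11.15, numpy 2.4.6, pandas 2.3.3 and scipy 1.17.1 and drawn with matplotlib 3.10.9.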

Additional observations from a re-analysis of the deposited data

Results flagged for a closer look

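For 2 of the 10 genes the KO effect in colitis differed between the lines by a test of the difference itself. Of all genes, 24.8% were called in that test and 12% were called lower, so this count is near the share over all genes. The effect on Neurog3 in the libraries labelled Il1f5 KO minus that in Il1f9 KO was -4.65 on the log2 scale (SE 0.91, edgeR adjusted p = 0.00505). All 3 libraries labelled Il1f5 KO lay below their WT libraries. In the Il1f9 line, KO 1 and WT 1 were level at 1.37 CPM (24 and 27 counts). The Il1f9 KO effect on Neurog3 was not called (0.51 ± 0.55, edgeR adjusted p = 0.56). For Insl5 the difference was -2.01 (SE 0.51, edgeR adjusted p = 0.0196), with all 3 libraries labelled Il1f5 KO below and both Il1f9 KO libraries above their WT libraries. The Insl5 difference lost its call without Il1f9 WT 2 (-1.74) or Il1f9 KO 2 (-1.49), and without a filter on low counts (edgeR adjusted p = 0.0643).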

How the results depend on the processing

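In tumours Neurog3 had at most 4 counts and Neurod1 at most 12, so that depth limits their levels there. Over 289 results for single genes, one choice at a time gave 1725 values, of which 1567 stayed on their side of the threshold, 144 lost a call, 14 gained one and 0 turned sign. Leaving out 1 library gave 3322 values, of which 3058 stayed, 256 lost a call, 6 gained one and 2 turned sign. Both were Sct in colitis with the Il1f5 line, at 0.17 without WT 3 and 0.12 without KO 2, in a range from -0.14 to 0.17. In these comparisons, Neurog3, Neurod1 and Tph1 kept their calls in the libraries labelled Il1f5 KO in colitis under every alternative run, and Chga lost its call without the filter (adjusted p = 0.0537), with only the groups compared (0.081) and in 1 fit of all libraries (0.17), as Insl5 did without the filter (0.0975) and in that fit (0.0518).

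The following counts of called genes moved by over 1.5 times, and the cause was not tested. With DESeq2 size factors the difference between KO effects in tumours had 25 genes. Without a filter, tumours had 1943 genes labelled Il1f5 KO against WT (1 of the 10 enteroendocrine genes, Pyy), 791 for Il1f9 KO and 1362 for the difference (1 of the 10), the colitis difference between lines had 1 of the 10, the tissue difference of the KO effect had 1 of the 10 in the Il1f5 line and 1823 genes in the Il1f9 line, WT lines in colitis had 1712 genes, and WT tumours had 3 of the 10. With the DESeq2 Wald test, tumours had 1230 genes labelled Il1f5 KO against WT, 158 for Il1f9 KO and 557 for the difference, the tissue difference had 1 of the 10 (Il1f5 line) and 1308 genes (Il1f9 line), and WT lines in colitis had 2065 genes and 4 of the 10. In 1 fit of all 18 libraries, colitis had 2815 genes and 3 of the 10 (Il1f5 line) and 2279 genes (Il1f9 line), tumours had 2909 and 117 genes for these lines and 1140 for the difference, WT lines in colitis had 371 genes and 0 of the 10, and WT tumours had 2 of the 10. With only the groups compared, tumours had 1026 genes (Il1f5 line) and 0 (Il1f9 line), WT lines in colitis 1806 genes and 4 of the 10, and WT tumours 3 of the 10.

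Libraries with the same replicate number had correlations of their deviations from the group means of -0.113 to 0.00034. In groups of 2 the deviations are exact opposites, so each such line gave a single value. The submitters' letters also differ within a number, with C for WT 2 and B for KO 2 in Il1f9 colitis. The correlations therefore cannot tell whether libraries shared handling, which was not tested. With the replicate number as a block, tumours had 9 genes labelled Il1f5 KO against WT and 4 for the difference between lines, the tissue difference had 1 of the 10 in the Il1f5 line (Pyy, adjusted p = 0.0394) and 168 genes in the Il1f9 line, WT lines in colitis had 303 genes and 1 of the 10, and Chga in the colitis libraries labelled Il1f5 KO was not called (adjusted p = 0.0622).

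Leaving out 1 library in turn, colitis had 1964 to 5586 genes and 4 to 8 of the 10 in the Il1f5 line, 1393 to 3396 genes and 0 to 1 of the 10 in the Il1f9 line, and 1961 to 5844 genes and 1 to 3 of the 10 for the difference. Tumours had 2 to 7 genes in the Il1f5 line, 4 to 97 in the Il1f9 line and 2 to 319 for the difference, with 0 of the 10 in each. Tumour against colitis had 13829 to 14532 genes and 9 to 10 of the 10. The tissue difference of the KO effect had 561 to 3969 genes in the Il1f5 line and 49 to 1107 in the Il1f9 line, with 0 to 1 of the 10 in each. WT lines had 118 to 1126 genes in colitis and 1670 to 2891 in tumours, with 0 to 1 of the 10 in each.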
